A study of Homo sapiens with 4 samples.

Results

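The glycolytic enzymes of the cytosol were followed as 10 nuclear-encoded mRNAs, GPI, ALDOA, TPI1, GAPDH, PGK1, PGAM1, ENO1, PKM, LDHA and LDHB, picked by gene symbol as abundant and stable transcripts that serve as a cytosolic background. These are 10 of the 62700 genes in the deposited count table, and all 10 were among the 18973 genes that passed the low-count filter. RNA came from HEK293T cells, a human embryonic kidney line that the labels describe as a stable clone of the original HEK line, in which a CMV promoter drives PRADA, a V5-tagged labelling construct sent to the mitochondrial matrix. The 2 labelled libraries (4SU+AP+DF) came from cells given 100 µM 4-thiouridine (s4U) for 5 h, then 0.5 mM alkyne phenol with s4U for 30 min and then 10 mM D-amino acid for 30 min. The 2 unlabelled libraries (4SU+AP) came from cells given the same s4U and alkyne phenol but no D-amino acid. The titles do not spell out DF, which is read here as the D-amino acid step because the protocol names its omission as the unlabelled control. Both groups carried the construct, and no library without it was analysed here. The series text describes the material as enriched after labelling, and library preparation included depletion of ribosomal RNA. Replicates are titled as biological, but whether each had its own culture is not stated, so a p-value here reflects only how these 4 libraries vary.

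Glycolysis splits glucose into pyruvate in the cytosol, and its mRNAs are translated on cytosolic ribosomes away from the mitochondrial matrix. The pathway feeds pyruvate either to lactate dehydrogenase in the cytosol or to pyruvate dehydrogenase and the TCA cycle inside mitochondria. Cultured lines of rapidly dividing cells usually keep these mRNAs at high levels. The question for these transcripts was therefore how far a background that is not in the matrix moved when labelling was switched on, compared with the spread between replicates.

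The uridine analogue s4U enters RNA at U positions during transcription, so the coding starts of 3 members are shown beside that of MT-CO1, a mitochondrially encoded mRNA, with each U position (written T) in capitals. The stretches are the first 120 coding bases, 5′ to 3′ on the RNA strand, taken from GENCODE 29 transcripts on GRCh38, with introns spliced out. ALDOA (chr16:30067255-30067457, plus strand) has the lowest share of U among the 10 whole transcripts, LDHA (chr11:18396843-18396962, plus strand) has the highest share of U over its coding sequence, and GAPDH (chr12:6534833-6536584, plus strand) is the customary reference mRNA. The MT-CO1 stretch lies on the mitochondrial chromosome from 5904 to 6023, plus strand. The positions given for the 3 members are likewise those of the stretches, not of the genes.
ALDOA: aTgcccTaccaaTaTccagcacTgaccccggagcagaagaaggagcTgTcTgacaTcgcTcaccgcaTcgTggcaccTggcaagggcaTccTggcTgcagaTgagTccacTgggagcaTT
GAPDH: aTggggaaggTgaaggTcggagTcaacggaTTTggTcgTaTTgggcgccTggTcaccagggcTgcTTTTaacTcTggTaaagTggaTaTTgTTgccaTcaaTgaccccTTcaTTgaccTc
LDHA: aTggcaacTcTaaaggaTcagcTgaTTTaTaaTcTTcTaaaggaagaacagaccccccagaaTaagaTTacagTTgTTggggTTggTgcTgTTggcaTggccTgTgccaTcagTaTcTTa
MT-CO1: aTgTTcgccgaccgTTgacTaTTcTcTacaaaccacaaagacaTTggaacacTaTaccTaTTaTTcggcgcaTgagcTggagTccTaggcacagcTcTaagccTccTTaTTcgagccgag
These stretches hold 21, 34, 34 and 30 U positions in that order. Over whole transcripts the members ranged from 19.2% U (ALDOA) to 29.7% U (PGK1) with a median of 22.2%, the 13 mitochondrial mRNAs had a median of 25.6%, and 7435 nuclear coding genes with a mean of at least 25 CPM (counts per 1e+06 assigned fragments) had a median of 25.4%.

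The labelled libraries held 9380258 and 12287451 assigned fragments and the unlabelled libraries 8172347 and 5771795. A count of 3 fragments corresponded to 0.244 to 0.520 CPM. Transcripts of the mitochondrial chromosome took 27.0% and 30.9% of fragments in labelled and 9.04% and 10.4% in unlabelled libraries. Of the 5 genes used as HEK293T markers (NEFM, NEFL, INA, PAX2 and LHX1), all 5 were tested and their sum was 30.0 to 31.3 CPM of assigned fragments in labelled and 28.2 to 42.5 CPM in unlabelled libraries. INA, the highest of the 5, had 111 and 132 fragments in labelled and 149 and 60 in unlabelled libraries, fewer than COL1A1 in each. NEFM (4 to 26 fragments) and LHX1 (7 to 25 fragments) were low. Of 10 markers of blood, fibroblast, endothelial and liver cells, 3 (CD3E, HBB and DCN) were at 0 in all libraries, and COL1A1, with 176 and 206 fragments in labelled and 174 and 78 in unlabelled libraries, gave nearly all of a sum of 17.6 to 19.1 CPM in labelled and 14.7 to 21.9 CPM in unlabelled libraries. Of the 10, only COL1A1 was tested, and edgeR called neither it nor any of the 5 HEK293T markers.

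None of the 10 glycolytic mRNAs differed between labelled and unlabelled libraries past the threshold. With edgeR's quasi-likelihood test, 0 of 10 had a Benjamini-Hochberg adjusted p under 0.05 over all genes tested, 0 of 10 had an unadjusted p under 0.05, and DESeq2 called 0 of 10. Over all genes tested edgeR called 0.285% (0.269% higher and 0.0158% lower in labelled libraries), DESeq2 called 0.389%, and 11.5% had an unadjusted p under 0.05 in edgeR, so an absence of calls among 10 genes is close to what the background share gives. The fitted log2 fold changes, labelled over unlabelled, ran from -0.28 for TPI1 to 0.23 for GPI, and 4 of 10 were positive. Their median was -0.02, against a median of -0.01 over all genes tested. TMM scaling takes most genes as unchanged, so a shift shared by most nuclear genes would not show in these medians. The median absolute log2 fold change was 0.08 for the members and 0.19 over all genes tested, which include many of low count. The gap was smaller beside the 7435 nuclear coding genes with a mean of at least 25 CPM. There the median absolute difference between group means of log2 CPM was 0.13, against 0.11 for the members. With the replicate number as a block 0 of 10 were called, where 1.24% of genes were. With library size alone in place of TMM scaling all 10 fold changes were negative and 2 members, TPI1 and LDHB, were called lower, where 14.1% of genes were called lower and 0.364% higher. The labelled and unlabelled values overlapped for all 10 members, while the groups did not overlap for 44.6% of genes tested. The counts are relative and, by the series text, come from enriched material, so they are not amounts per cell. Less RNA of a kind in the material and more of the rest cannot be told apart.

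**Figure D1:**
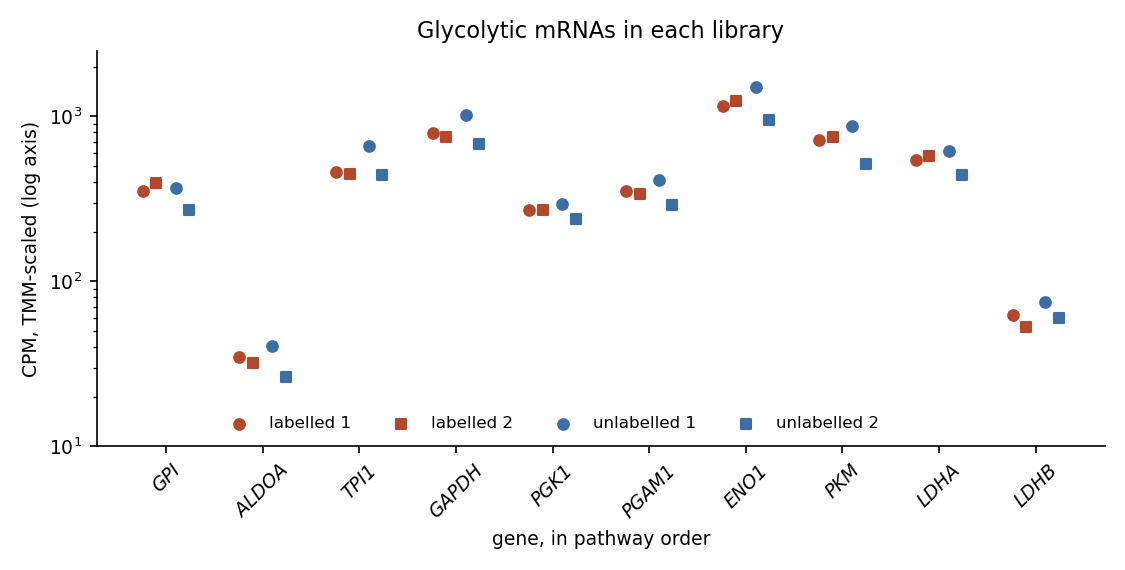
TMM-scaled CPM (log axis) of the 10 glycolytic mRNAs in pathway order, with 1 point per library, labelled in red and unlabelled in blue. The labelled points lie close together, and in 8 of 10 genes both fall between the unlabelled points.

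The upper part of the pathway is represented by GPI, which turns glucose 6-phosphate into fructose 6-phosphate, and by ALDOA and TPI1, which cleave the hexose and interconvert the triose phosphates. GPI (ENSG00000105220, chromosome 19, 34359480 to 34402413) stood at 354 and 395 CPM in labelled libraries and at 366 and 269 CPM in unlabelled libraries. It was the only member whose highest value was in a labelled library and had the largest positive log2 fold change of the 10, at 0.23 ± 0.17 (SE), which did not pass (edgeR adjusted p = 0.622). TPI1 (ENSG00000111669, chromosome 12, 6867119 to 6870948) had 462 and 447 CPM in labelled libraries, against 662 and 441 CPM in unlabelled libraries. Its labelled values sat just above the lower unlabelled value, and its log2 fold change of -0.28 ± 0.19 (SE) was the most negative of the 10 (edgeR adjusted p = 0.599).

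ALDOA (ENSG00000149925, chromosome 16, 30064164 to 30070457) had only 35.0 and 32.0 CPM in labelled libraries, against 40.7 and 26.4 CPM in unlabelled libraries, the lowest level of the 10. All bases of its chosen transcript (100%) are also covered by exons of other annotated genes, ENSG00000285043 on the same strand and ENSG00000274904 on the opposite strand. Fragments that fitted more than 1 gene equally well were left unassigned in the deposited counts. The ALDOA value therefore misses an unknown share of its fragments and is no measure of the level of its mRNA. Its labelled values lay between the unlabelled values, with a log2 fold change of -0.02 ± 0.18 (SE).

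The middle of the pathway, where energy is first recovered, is represented by GAPDH, which oxidises glyceraldehyde 3-phosphate, by PGK1, which makes ATP, and by PGAM1, which shifts the phosphate group. GAPDH (ENSG00000111640, chromosome 12, 6534512 to 6538374) had 791 and 751 CPM in labelled and 1013 and 685 CPM in unlabelled libraries. Its group means were 771 ± 28.4 CPM and 849 ± 232 CPM (SD, n = 2 each), so the unlabelled spread was many times the labelled spread, and the log2 fold change of -0.14 ± 0.20 (SE) had a 95% interval from -0.58 to 0.31. Exons of ENSG00000269968 on the opposite strand cover 32.7% of its transcript bases. In the unstranded counts, fragments over these bases that fitted both genes equally well stayed unassigned.

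PGK1 (ENSG00000102144, chromosome X, 77910739 to 78129295) was the steadiest member, at 269 and 269.5 CPM in labelled and 296 and 239 CPM in unlabelled libraries. Its log2 fold change was 0.01 ± 0.15 (SE), the smallest of the 10 in size, with an interval from -0.32 to 0.33. PGAM1 (ENSG00000171314, chromosome 10, 97426191 to 97433444) had 352 and 339 CPM in labelled libraries, against 411 and 289 CPM in unlabelled libraries. As with PGK1, both labelled values lay between the unlabelled values, and the log2 fold change was -0.02 ± 0.18 (SE).

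The last steps are represented by the enolase gene ENO1 and the pyruvate kinase gene PKM. ENO1 (ENSG00000074800, chromosome 1, 8861000 to 8879190) was the member with most counts, at 1159.9 and 1239.9 CPM in labelled and 1511 and 956 CPM in unlabelled libraries. The means of 1199.9 ± 56.6 CPM and 1234 ± 393 CPM (SD, n = 2 each) differed by less than either group's spread (log2 fold change -0.04 ± 0.23, SE). PKM (ENSG00000067225, chromosome 15, 72199029 to 72231819) had 720.4 and 753 CPM in labelled libraries, against 876 and 517 CPM in unlabelled libraries. Its unlabelled replicates differed by 1.69-fold, the widest gap of the 10, and its log2 fold change was 0.08 ± 0.23 (SE).

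The lactate dehydrogenase genes LDHA and LDHB encode the M and H subunits, which combine into the tetramers that interconvert pyruvate and lactate. LDHA (ENSG00000134333, chromosome 11, 18394560 to 18408425) had 547 and 572 CPM in labelled and 615 and 438 CPM in unlabelled libraries, with both labelled values between the unlabelled ones. LDHB (ENSG00000111716, chromosome 12, 21635342 to 21757857) had 62.5 and 53.1 CPM in labelled libraries, against 74.8 and 59.9 CPM in unlabelled libraries. Exons of ENSG00000285854 on the same strand cover 76.5% of the LDHB transcript. Fragments over these bases that fitted both genes equally well were not assigned, so the LDHB level is understated. The ratio of LDHA to LDHB counts was 8.76 and 10.8 in labelled and 8.22 and 7.32 in unlabelled libraries. The ratio was higher in both labelled libraries, by 0.33 on the log2 scale, and the two-sided exact permutation test over libraries gave p = 0.333, the smallest p that 2 against 2 libraries allow. As a ratio of counts it carries the missing LDHB fragments and is not the isozyme ratio of the cells.

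**Figure D2:**
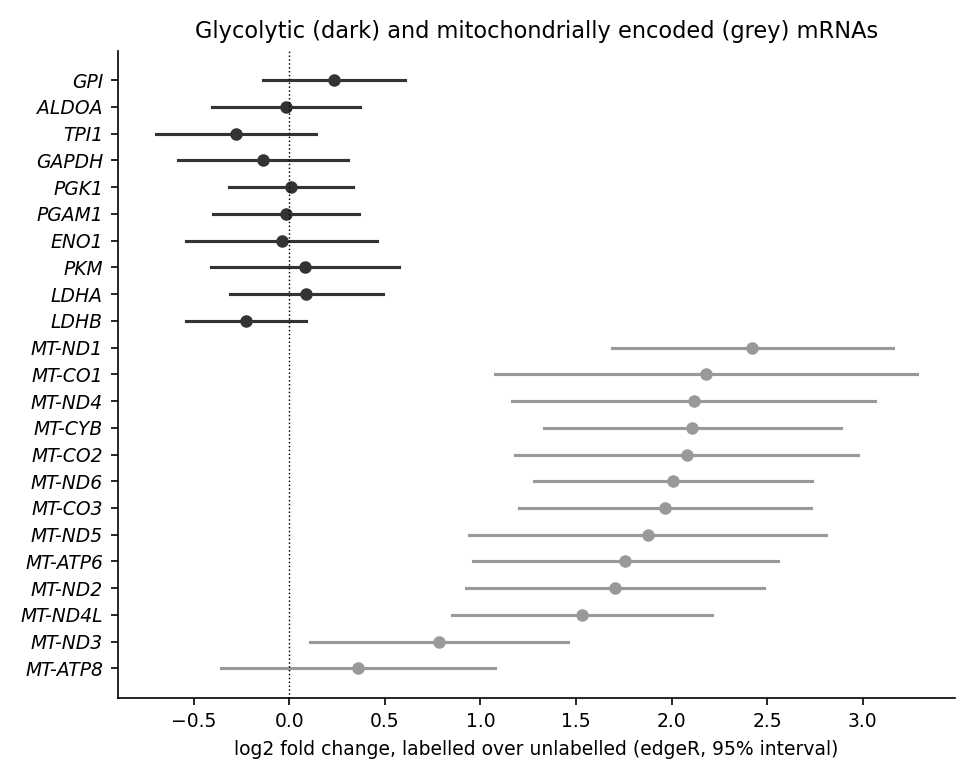
Log2 fold change, labelled over unlabelled, with its 95% interval from the edgeR fit, for the 10 glycolytic mRNAs (dark) and the 13 mitochondrially encoded mRNAs (grey, ordered by fold change). The glycolytic estimates lie between -0.28 and 0.23 with intervals that include 0, and the mitochondrial estimates lie between 0.36 and 2.42.

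After TMM scaling, the intervals set how large a change relative to most genes these libraries could have held. As folds, the 95% intervals of the 10 members lay between 0.615 (the lower bound of TPI1) and 1.52 (the upper bound of GPI). MT-CO1, which encodes a catalytic subunit of complex IV, had 70294 and 79682 CPM in labelled libraries, against 15798 and 17336 CPM in unlabelled libraries. MT-ND4 of complex I had 38998 and 46064 CPM in labelled and 9097 and 10529 CPM in unlabelled libraries, and MT-CYB of complex III 20110 and 21726 CPM in labelled and 4582 and 5122 CPM in unlabelled libraries. For these 3 the groups were far apart, and MT-CYB passed the threshold (log2 fold change 2.11 ± 0.36, SE, edgeR adjusted p = 0.0289), while MT-CO1 (2.18 ± 0.51, adjusted p = 0.150) and MT-ND4 (2.12 ± 0.44, adjusted p = 0.0948) did not. Of the 13 mitochondrial mRNAs, edgeR called 4 and DESeq2 11 as different.

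A ratio of counts within a library needs no scaling between libraries. The summed counts of the 13 mitochondrial mRNAs were 60.6 and 70.3 times the summed counts of the 10 glycolytic mRNAs in labelled libraries, against 12.9 and 22.4 times in unlabelled libraries. The mean ratios were 65.4 ± 6.81 and 17.7 ± 6.76 (SD, n = 2 each), 3.71-fold apart. The size of that fold depended on which libraries were set against each other, from 2.702-fold to 5.45-fold over the 4 pairs of a labelled and an unlabelled library. With single members as denominator, the fold in the mean ratio of MT-CO1 ranged from 3.73 (over GPI) to 5.25 (over LDHB). Over GAPDH alone, the MT-CO1 ratio was 88.8 and 106 in labelled and 15.6 and 25.3 in unlabelled libraries.

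The share of the 10 members among all assigned fragments was 0.435% and 0.411% in labelled libraries, against 0.644% and 0.450% in unlabelled libraries. The 95% Wilson intervals, which hold counting error only, did not overlap between libraries. They ran from 0.407 to 0.414% for labelled replicate 2 and from 0.445 to 0.456% for unlabelled replicate 2. That of labelled replicate 1, from 0.430 to 0.439%, came close to that of unlabelled replicate 2. The labelled mean of 0.423% ± 0.0169 was 0.772 times the unlabelled mean of 0.547% ± 0.137 (SD, n = 2 each). Among fragments of genes outside the mitochondrial chromosome, the share was 0.595% and 0.594% in labelled and 0.708% and 0.503% in unlabelled libraries. There the means of 0.595% and 0.606% differed by a factor of 0.982, and both labelled libraries lay between the unlabelled ones. The lower share of all fragments in labelled libraries thus went together with the larger mitochondrial share.

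**Figure D3:**
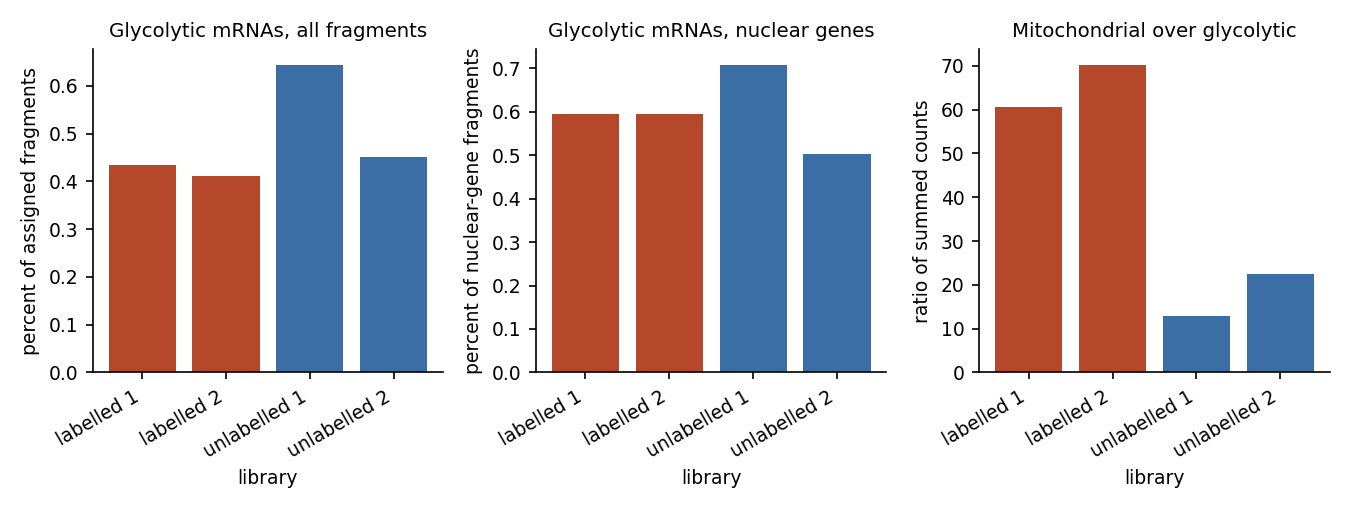
Bars for each library, labelled in red and unlabelled in blue, of the glycolytic share of all assigned fragments (left), the glycolytic share of fragments outside the mitochondrial chromosome (middle) and the ratio of mitochondrial to glycolytic mRNA counts (right). The middle bars of both labelled libraries stand at 0.595% and 0.594%, and the right bars at 60.6 and 70.3 against 12.9 and 22.4.

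The unlabelled replicates differed from each other in the glycolytic mRNAs more than the groups did. All 10 members were higher in unlabelled replicate 1 than in unlabelled replicate 2, by 0.31 (PGK1) to 0.76 (PKM) in log2 CPM, with a median of 0.54. Over 7435 nuclear coding genes with a mean of at least 25 CPM, a limit placed below the lowest member, the median of that difference was 0.08, 63.0% of genes were higher in replicate 1, and 4.95% reached the members' median. Between the labelled replicates, 5 of 10 members were higher in replicate 1, and the median absolute difference was 0.07 against 0.08 for the nuclear genes. For all 10 members the fitted group difference was smaller in size than the difference between the unlabelled replicates. It was smaller than the difference between the labelled replicates for 4 of 10. A difference between means of 2 libraries also varies less than a difference between single libraries.

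**Figure D4:**
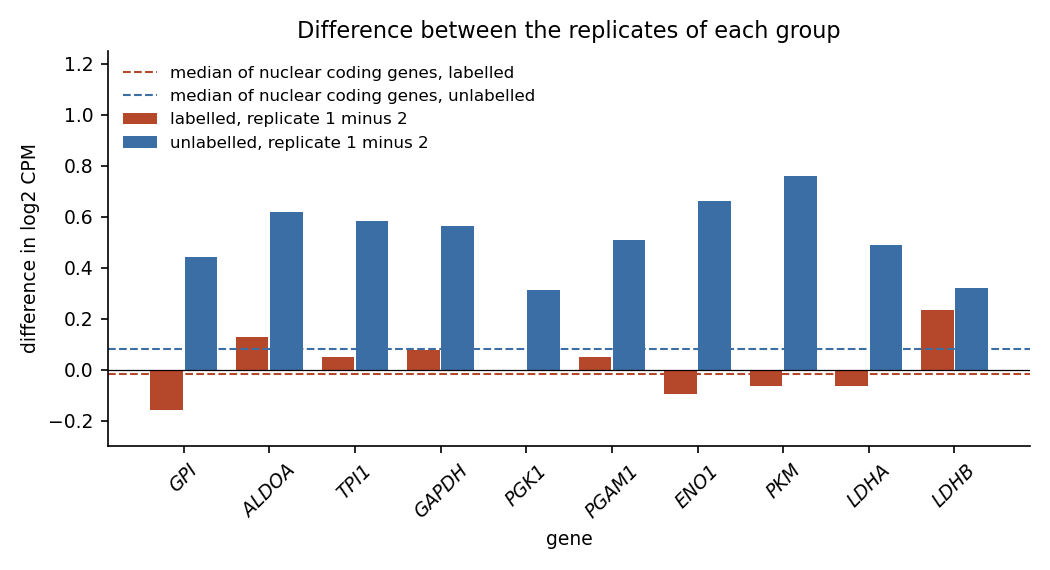
Difference in log2 CPM between replicate 1 and replicate 2 of the labelled group (red) and of the unlabelled group (blue) for each member, with dashed lines at the median of 7435 nuclear coding genes. The unlabelled bars lie between 0.31 and 0.76 and the labelled bars between -0.16 and 0.23.

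Across the 4 libraries the members kept 1 shape. The highest of the 4 values was in unlabelled replicate 1 for 9 of 10 members (23.4% of genes tested) and the lowest in unlabelled replicate 2 for 9 of 10 (33.8% of genes tested). GPI and LDHB were the exceptions, with the highest GPI value and the lowest LDHB value both in labelled replicate 2. Both labelled values lay within the unlabelled range for 8 of 10 members, against 21.3% of genes tested. Parts of the glycolytic pool were also compared. ENO1 took 24.4% and 25.6% of the pool counts in labelled and 25.8% and 24.4% in unlabelled libraries, GAPDH 16.6% and 15.5% in labelled and 17.3% and 17.5% in unlabelled libraries, and TPI1 9.73% and 9.21% in labelled and 11.3% in both unlabelled libraries. GPI took 7.44% and 8.14% of the pool in labelled libraries, against 6.25% and 6.87% in unlabelled libraries, and LDHB 1.32% and 1.09% in labelled and 1.28% and 1.53% in unlabelled libraries.

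Other measures of unlabelled replicate 2 moved with this difference. It was the shallowest library, its fragments outside annotated exons were 51.3% of the sum of these and the assigned fragments (40.7% in unlabelled replicate 1 and 33.1 to 35.3% in labelled libraries), and RN7SL genes of the signal recognition particle took 2.89% of its fragments (1.64% in unlabelled replicate 1 and 1.05 to 1.08% in labelled libraries). Their part in the glycolytic values was not tested. Across the 7435 nuclear coding genes the difference between the unlabelled replicates had a Spearman rho of 0.44 with GC content and -0.36 with the share of U, and across the 10 members 0.68 and -0.66. Genes of 1 library share its depth and preparation, and GC and U shares mirror each other, so these are descriptions. The members had a median GC content of 55.2%, against 47.9% for the nuclear genes. The difference between the labelled and unlabelled means had a rho of 0.02 with the share of U across the nuclear genes and -0.13 across the members. With GC content it was -0.01 and 0.20, and with transcript length -0.05 and 0.70, in that order. Between the unlabelled replicates, the rho with transcript length was -0.33 across the nuclear genes and -0.21 across the members. With 10 members these too are descriptions.

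Leaving out single libraries showed how far the fold changes rested on the unlabelled replicates. Without unlabelled replicate 1, log2 fold changes were positive for 9 of 10 members, the median was 0.32, and GPI (0.51), PKM (0.54), LDHA (0.38) and ALDOA (0.37) were called higher by edgeR (adjusted p = 2.41e-04, 5.33e-04, 0.0144 and 0.0469 in that order), where 11.6% of genes were called higher and 7.37% lower. Without unlabelled replicate 2, 9 of 10 had a negative log2 fold change, the median was -0.26, and TPI1 (-0.54), GAPDH (-0.39) and LDHB (-0.37) were called lower by edgeR (adjusted p = 1.77e-04, 0.0479 and 0.0146 in that order), where 2.55% of genes were called lower and 2.06% higher. In these fits the lone unlabelled library is assumed to vary like the other group. Without labelled replicate 1 or labelled replicate 2 edgeR called no member and 0 of 10 had an unadjusted p under 0.05, and the medians were 0.0005 and 0.02.

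**Figure D5:**
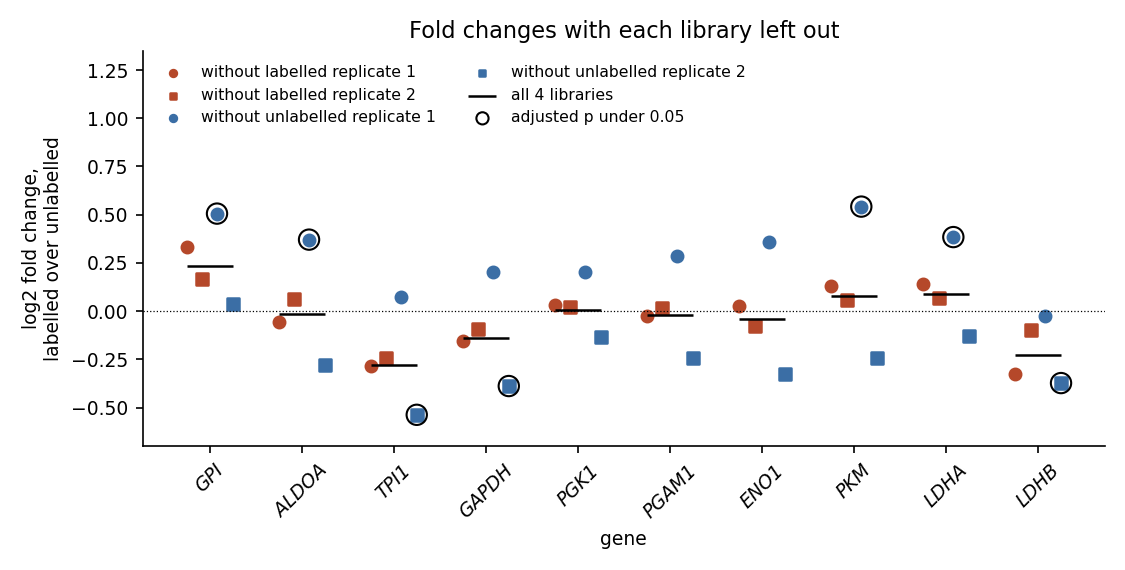
Log2 fold change of each member, labelled over unlabelled, with each library left out in turn (points) and with all 4 libraries (black lines), and rings where the edgeR adjusted p was under 0.05. The points without unlabelled replicate 1 lie above and those without unlabelled replicate 2 below the black lines in all 10 genes.

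Levels were compared between members per kilobase of the chosen GENCODE 29 transcript, as the mean TMM-scaled CPM of the 4 libraries. ENO1 was highest at 683 CPM per kb, followed by GAPDH at 432, TPI1 at 409, PKM at 264, LDHA at 225, PGAM1 at 190.1, GPI at 169.7, PGK1 at 54.9, LDHB at 48.0 and ALDOA at 20.9 CPM per kb. Each neighbour in this order kept its place in all 4 libraries except PGAM1 over GPI, which held in 3. As counted, GAPDH and TPI1 were nearly level, with a within-library ratio of 1.00 to 1.12. Exons of another gene cover 32.7% of the GAPDH transcript bases, against 0% for TPI1 and ENO1, so GAPDH is understated beside both. With the merged exon length of the count table as divisor, the order became GAPDH (338 CPM per kb), ENO1 (233), TPI1 (186), PGAM1 (137), LDHA (90.1), PKM (83.6), PGK1 (49.3), GPI (32.4), LDHB (21.0) and ALDOA (8.75), so that ENO1 and GAPDH, PKM and PGAM1, and GPI and PGK1 changed places. The low places of LDHB and ALDOA carry the loss of fragments to overlapping genes. The places of GAPDH and GPI (9.46% of transcript bases shared) carry such a loss as well.

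For most reactions the listed member was nearly the sole isozyme detected. Per kb, PKM made up at least 99.8% of pyruvate kinase counts in every library beside PKLR, the liver and red cell gene, and ENO1 at least 97.6% of enolase counts beside the neuronal gene ENO2, the muscle gene ENO3 and ENO4. The testis gene PGK2 and the muscle gene PGAM2 were at 0 in all libraries. However, all exon bases of PGAM2 are shared with genes on the opposite strand, so its fragments may have stayed unassigned. Exons of other genes also cover 43.7% of the ENO4 transcript, 63.9% of that of GAPDHS and 90.1% of that of PGAM4. Counts of these 3 isozymes are thus understated. Among aldolases ALDOA held 77.9 to 81.9% and the brain gene ALDOC 13.5 to 17.1%, with the ALDOA part understated. Among lactate dehydrogenases LDHA held 78.7 to 84.2% and LDHB 14.5 to 19.9%, with the LDHB part understated. Of 21 other isozyme genes of the pathway, 13 were tested, edgeR and DESeq2 each called 0, 2 had an unadjusted p under 0.05, and the median log2 fold change was 0.08. HK1, the main hexokinase of most cells, stood at 153 and 171 CPM in labelled libraries, against 145 and 96.0 CPM in unlabelled libraries, a log2 fold change of 0.43 ± 0.18 (SE, edgeR adjusted p = 0.398). PFKP, the platelet form of phosphofructokinase, had 103 and 111 CPM in labelled and 97.8 and 61.1 CPM in unlabelled libraries (log2 fold change 0.42 ± 0.18, SE, adjusted p = 0.413). ENO2 had 26.6 and 24.7 CPM in labelled and 22.4 and 19.9 CPM in unlabelled libraries (0.27 ± 0.14, adjusted p = 0.489). The labelled values of these 3 genes lay above both unlabelled values, and none of the 3 passed. The 3 were named for the smallest p in the list, so that separation follows from the choice. ENO3, ENO4 and LDHC also lay higher without overlap, and the groups overlapped for the remaining tested isozymes. Among all genes tested, 22.2% lay higher without overlap.

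Genes around the pathway were likewise not called. Of 21 regulators and transporters of glucose, lactate and pyruvate, 18 were tested, 0 were called by edgeR or DESeq2, 2 had an unadjusted p under 0.05, and the median log2 fold change was 0.06. The neuronal glucose transporter gene SLC2A3 had 5.36 and 6.64 CPM in labelled and 3.56 and 2.11 CPM in unlabelled libraries (log2 fold change 1.05 ± 0.33, SE, edgeR adjusted p = 0.303). SLC2A1, the glucose transporter of most dividing cells, had 66.1 and 70.6 CPM in labelled libraries, against 60.8 and 36.7 CPM in unlabelled libraries (0.48 ± 0.19, adjusted p = 0.381), and ADPGK, an ADP-dependent glucokinase, had -0.23 ± 0.12 (adjusted p = 0.490). Of 14 genes of the pentose phosphate pathway and gluconeogenesis, 10 were tested and 0 called by edgeR or DESeq2, with 1 at an unadjusted p under 0.05 and a median of -0.01. On the log2 scale the fold change of PCK2, the mitochondrial phosphoenolpyruvate carboxykinase gene, was 0.48 ± 0.17 (SE, edgeR adjusted p = 0.347), that of PGD of the pentose phosphate pathway 0.36 ± 0.21 (0.534) and PGLS of the same pathway -0.20 ± 0.17 (0.669).

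Hypoxia raises many glycolytic mRNAs through HIF1, so 15 genes of the hypoxia response, HIF1A among them, were read alongside. Of these 15 genes 14 were tested, edgeR and DESeq2 each called 0, 2 had an unadjusted p under 0.05, and the median log2 fold change was 0.13. The log2 fold change was positive for 13 of the 14, with VEGFA at 0.002 and BNIP3L at 0.0014. Of the 7435 nuclear coding genes with a mean of at least 25 CPM, 59.7% had the higher mean log2 CPM in labelled libraries. Some of the 14 lie below that level. ADM, the gene of the peptide adrenomedullin, had 4.66 and 4.42 CPM in labelled and 1.78 and 1.36 CPM in unlabelled libraries, a log2 fold change of 1.50 ± 0.36 (SE, edgeR adjusted p = 0.161). The groups lay apart for ADM, at a low level. SLC2A1, described above, is also on this list, and HIF1A itself had a fold change of 0.22 ± 0.13 on the log2 scale (adjusted p = 0.534).

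The TCA cycle and pyruvate dehydrogenase genes, nuclear genes whose products work in the matrix, had no call in the group contrast either. All 22 were tested, edgeR and DESeq2 each called 0, 1 had an unadjusted p under 0.05, and the median log2 fold change was -0.01. PDHX, a structural subunit of pyruvate dehydrogenase, had 54.2 and 65.5 CPM in labelled libraries, against 46.4 and 42.4 CPM in unlabelled libraries (0.43 ± 0.14, SE, edgeR adjusted p = 0.306). The succinate-CoA ligase gene SUCLG1 had -0.26 ± 0.13 (adjusted p = 0.475) and the dihydrolipoamide dehydrogenase gene DLD 0.24 ± 0.12 (adjusted p = 0.477). Between the unlabelled replicates the median difference in log2 CPM was 0.23 for these 22 genes and 0.43 for the 10 pentose phosphate and gluconeogenesis genes tested, against 0.54 for the glycolytic members and -0.21 for the 13 mitochondrial mRNAs. It was 0.56 for the 5 HEK293T markers, 4 of which were higher in replicate 1, 0.33 for the 13 other isozymes tested, 12 of which were higher in replicate 1, and 0.13 both for the 18 regulators and transporters and for the 14 hypoxia genes tested.

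Among 4434 nuclear genes outside the lists with a mean of at least 50 CPM, the 5 whose profile over the 4 libraries lay closest to the mean glycolytic profile, by Euclidean distance of log2 CPM around each gene's mean, were NUCB1, GHITM, SDF4, CTSB and GRK6, at distances of 0.0253 to 0.0357. NUCB1, for example, had 91.4 and 91.0 CPM in labelled and 108 and 76.9 CPM in unlabelled libraries. With 4 libraries such likeness is a description.

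Processed pseudogenes are copies of mRNAs in the genome, and GAPDH is known for having many. The table lists 104 copies named after the members, 65 of them of GAPDH and none of GPI, and 66 of the 104 had at least 1 fragment. The copies' counts came to at most 4.61% of the parent's counts for GAPDH, 2.91% for TPI1 and 2.71% for PGAM1. Fragments that map equally well to a parent and a copy are not in these counts, so parents with close copies are understated by an unknown amount. Of the 10 copies tested, 0 were called by edgeR and 1 had an unadjusted p under 0.05. The copy with the most fragments for GAPDH was GAPDHP1 on chromosome X, with 50 and 60 fragments in labelled and 101 and 61 in unlabelled libraries (log2 fold change -0.83 ± 0.23, SE, adjusted p = 0.257), and for TPI1 it was TPI1P1 on chromosome 1, with 82 and 94 fragments in labelled and 121 and 69 in unlabelled libraries (-0.37 ± 0.21, adjusted p = 0.514). The leading copies of the other members had 0 to 23 fragments in any library.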

How the data were processed

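Fragment counts per gene, as whole numbers with no normalization, were taken from the deposited table. The authors' command, per the file headers, was featureCounts 1.6.4 with GENCODE 44: both ends of a pair had to map, chimeric pairs were dropped, exons were joined into genes, and neither a strand setting nor a setting that keeps multi-mapping reads was given. STAR 2.7.9a, DESeq2 1.42.0 and the GRCh38 build are named per the submitters' processing notes. No header or label says whether duplicates were removed. Alignment records by status came from the other deposited table.

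Symbols were found for all 62700 gene IDs. Counts were fitted with edgeR 4.0.16 (glmQLFit, glmQLFTest) in R 4.3.3 after filterByExpr and TMM, with 4 libraries, no block and Benjamini-Hochberg adjustment at 0.05. Each SE is the size of the log2 fold change over the root of its F statistic, and intervals use 12.0 degrees of freedom. CPM are TMM-scaled unless said to be of assigned fragments. Differences in log2 CPM use a prior count of 2. The permutation test and 95% Wilson intervals used SciPy 1.17.1. The Wilson intervals cover counting error only, and they take fragments as independent although no molecular identifiers separate PCR copies. Transcripts and base composition came from GENCODE 29 (the transcript with the best APPRIS rank), and exon overlap from the table's own exons, both on GRCh38. The fit was tested on simulated data that held no mitochondrial shift, so that test is a check of the code alone.

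The members, the lists of genes and the choice of genes to name (all members, the 3 smallest p in each related list, 3 mitochondrial mRNAs, the 5 nearest profiles and the top pseudogene copies) were chosen with earlier results of these data known. Alternatives were DESeq2 1.42.0, other scalings and filters, thinning, a replicate block and leaving out each library.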

Additional observations from a re-analysis of the deposited data

How the results depend on the processing

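Over 13 alternatives, 99 of 130 member fold changes kept their direction and their side of the threshold. With library size alone, where the fold changes of all genes have a median of -0.37 (log2), calls over all genes were 2744 (69 higher, 2675 lower), the members' median was -0.37 and 2 members were called, TPI1 and LDHB, both lower (14.1% of genes were called lower); GPI stood at -0.12, LDHA at -0.26, PGK1 at -0.34 and PKM at -0.27. The other reversals with all 4 libraries kept were of values near 0, with ALDOA at 0.0165 and PGAM1 at 0.0051 in DESeq2, 0.0101 and 0.0064 with no low-count filter, 0.0188 and 0.0026 with the replicate block, and PGK1 at -0.0276 with upper-quartile factors and -0.013 after thinning. Calls over all genes were 302 with no filter, 30 with mitochondrial genes left out and 236 with the replicate block, under which 0 members were called; same-numbered libraries had a correlation of deviations of -0.0698, so the numbers gave no sign of pairing. Leaving out each library gave 58 to 3985 calls over all genes, 0 to 4 members called and a members' median of -0.26 to 0.32. With a library left out 11 values reversed, not all of them near 0, and the log2 fold changes ranged from -0.28 to 0.37 for ALDOA, -0.33 to 0.36 for ENO1, -0.39 to 0.20 for GAPDH, 0.04 to 0.51 for GPI, -0.13 to 0.38 for LDHA, -0.37 to -0.03 for LDHB, -0.24 to 0.29 for PGAM1, -0.13 to 0.21 for PGK1, -0.24 to 0.54 for PKM and -0.54 to 0.0736 for TPI1. On the log2 scale the glycolytic share, labelled over unlabelled, was -0.37 of all fragments and -0.0261 outside the mitochondrial chromosome (-0.61 to -0.09 of all fragments with a library left out). For the mitochondrial to glycolytic ratio, the log2 of the fold between the mean ratios was 1.89 (1.54 to 2.34 with a library left out). For the LDHA to LDHB ratio, the difference between the mean log2 ratios, labelled minus unlabelled, was 0.33 (0.18 to 0.48). The cause was not tested. With 2 libraries a group and TMM scaling, the 95% intervals of the members leave folds between 0.615 and 1.52 possible. Counts were 175 to 13570 fragments per member and library.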
